A study of Mus musculus with 2 samples.

Results

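The platelet-derived growth factor (PDGF) family comprises the 2 receptor genes Pdgfra and Pdgfrb and the 4 ligand genes Pdgfa, Pdgfb, Pdgfc and Pdgfd, and these 6 genes were taken by name from the 31053 genes counted in each library. Their RNA was followed by single-cell RNA sequencing (scRNA-seq) in stromal cells of the mouse intestine carrying adenomas. PDGF ligands are secreted dimers that activate receptor tyrosine kinases. PDGF-AA and PDGF-CC act on receptor α, PDGF-DD acts mainly on receptor β and PDGF-BB activates both. In the intestine, receptor α marks mesenchymal cells and is most abundant in cells that lie directly under the epithelium, whereas receptor β is a classical pericyte receptor that PDGF-B from endothelium engages when pericytes are recruited to vessels.

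Cells of the lamina propria, the connective tissue below the epithelium, came from C57BL/6 mice of 11 weeks. The first library is from ApcMin mice, of genotype ApcMin/+;Lef1 +/+, and the second from VApcMinL mice, of genotype ApcMin/+;Lef1 fl/fl; Villin-Cre. All animals therefore carry the Min allele of Apc, which gives intestinal adenomas, and the comparison is between Lef1 present and Lef1 deleted. Villin-Cre is driven in the intestinal epithelium, so the stromal cells that carry these 6 transcripts have the floxed Lef1 allele but do not drive the Cre. Viable cells negative for Ter119, EpCAM and CD45 (proteins of red cells, epithelium and leukocytes) were sorted before the library was made on a droplet platform that counts RNA molecules by unique molecular identifiers (UMIs).

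There is 1 library per genotype and the number of mice in it is not given in the sources used here. Genotype, mouse, dissection and library cannot be told apart, and no p-value was computed. The 95% intervals printed here are exact and cover counting error only. Levels are UMIs of a gene per 1000000 UMIs of a population (CPM), and are compared only within a gene, since 3′ counting does not make different genes comparable. Shares of cells with a UMI are also given after every cell was thinned to 3000 UMIs, because depth differed between populations.

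The libraries held 6599 ApcMin and 6569 VApcMinL barcodes with at least 3000 UMIs and at most 20% mitochondrial UMIs, with medians of 10849 and 9111 UMIs, and they shared 18 barcodes. Clustering without the 6 genes gave 22 populations with a marker-based name and 1 cluster without a name, in which 95.6% of cells had a high doublet score. Fibroblast-like cells were 3350 of the ApcMin cells (50.8%) and 3681 of the VApcMinL cells (56.0%) and fell into 9 clusters, which are called here by leading genes. Cell types that the sort should remove were present, with 1365 and 363 erythroid-like, 661 and 355 B cell-like and 49 and 346 epithelial-like cells in ApcMin and VApcMinL.

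The fibroblast-like cells of ApcMin and VApcMinL differed in regional genes, and the cause of this difference was not tested. A UMI of Barx1 or Six2, transcription factor genes of the mesenchyme of the stomach and the neighbouring foregut, was found in 654 ApcMin fibroblast-like cells (19.5%) and in 48 VApcMinL ones (1.30%). Nkx2-3, a factor of midgut and hindgut mesenchyme, went the other way, with 129 CPM in ApcMin and 219 CPM in VApcMinL. Values that move with this difference are given with and without the cells carrying Barx1 or Six2.

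The 6 genes differed in the population with their highest level. The receptor Pdgfra lay in fibroblast-like cells of all 9 clusters, and Pdgfrb was highest in pericyte-like cells with a lower level in all fibroblast-like clusters. Among the ligands, Pdgfa was highest in glia-like cells, Pdgfb and Pdgfd in blood endothelial-like cells and Pdgfc in smooth muscle-like cells. These highest populations were the same in both libraries for Pdgfrb, Pdgfa, Pdgfb, Pdgfc and Pdgfd. Pdgfra was highest in Bmp5 Bmp7 cells in both, but in ApcMin Scg2 Thbs2 cells were higher after thinning or without likely doublets.

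**Figure D1:**
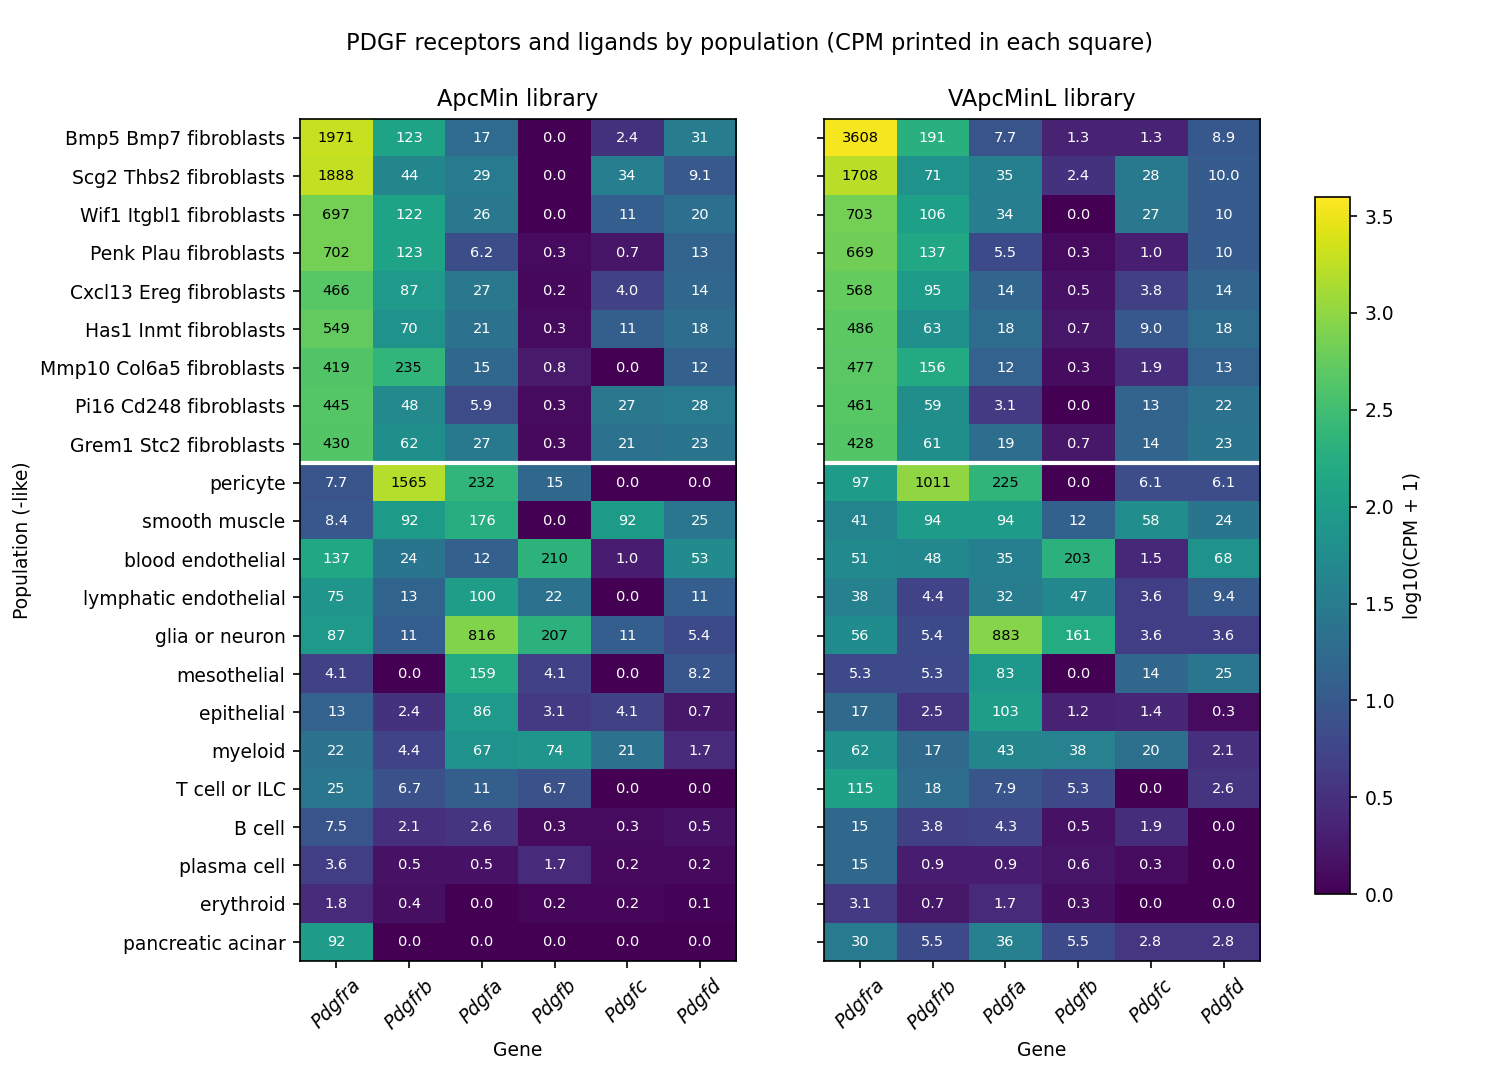
Level of each PDGF gene (columns) in each named population (rows), with a panel for each library, in CPM of the population. Colour is on a log10(CPM + 1) scale and the CPM is printed in each square. Pdgfra is bright over the fibroblast-like clusters and highest in Bmp5 Bmp7 cells, at 1971 CPM in ApcMin and 3608 CPM in VApcMinL. Pdgfa is highest in the glia-like row, at 816 and 883 CPM.

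Pdgfra (ENSMUSG00000029231; GRCm38, chr5:75152292-75198215, plus strand) encodes receptor α. In all fibroblast-like cells its level was 627 CPM (620 to 635) in ApcMin and 637 CPM (629 to 644) in VApcMinL. A UMI was seen in 97.3% and 95.7% of these cells, and in 76.7% and 76.7% after thinning. Of all Pdgfra UMIs in cells, 97.6% and 96.2% lay in fibroblast-like cells. Erythroid-like cells, which lack the receptor, gave the background: 1.54% of 1365 ApcMin cells and 2.48% of 363 VApcMinL cells had a UMI at median depths of 9401 and 7356 UMIs, or 0.440% and 1.38% after thinning. Droplets without a cell held Pdgfra at 97.4 and 135 CPM.

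Among the fibroblast-like clusters Pdgfra set 2 clusters apart from the other 7. Cells of the Bmp5 Bmp7 cluster had 1971 CPM (1839 to 2111; 32 cells) in ApcMin and 3608 CPM (3476 to 3743; 77 cells) in VApcMinL. Cells of the Scg2 Thbs2 cluster had 1888 CPM (1834 to 1944; 171 cells) and 1708 CPM (1647 to 1771; 144 cells). These were the 2 highest clusters in both libraries, and their intervals overlapped in ApcMin but not in VApcMinL. After thinning, the ApcMin levels were 1635 CPM in Bmp5 Bmp7 cells and 1982 CPM in Scg2 Thbs2 cells. Without likely doublets they were 2023 and 2052 CPM, so the order in ApcMin is not settled. All other clusters stayed between 419 and 703 CPM, so that the highest cluster exceeded the lowest 4.70-fold in ApcMin and 8.44-fold in VApcMinL.

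The Bmp5 Bmp7 cluster carried most genes of a list for subepithelial stromal cells. Of the 11 listed genes, 9 were found in at least 25% of its ApcMin cells and 8 in VApcMinL. Bmp5, Bmp7, Bmp3, Nrg1 and Sox6 of this list are also among the leading genes of the cluster. The list was chosen with earlier results of these data known, so these counts do not test the identity of the cells. This list was not particular to the cluster, since Wif1 Itgbl1 cells held 5 of 11 in ApcMin and 8 of 11 in VApcMinL. Bmp5 Bmp7 cells also held 5 and 6 of 8 smooth muscle markers. Bmp5 and Bmp7 encode bone morphogenetic proteins, signals that promote epithelial differentiation along the villus. Bmp5 stood at 855 CPM in ApcMin and at 855 CPM in VApcMinL, Bmp7 at 286 and 492 CPM, and Wnt5a, which encodes a Wnt ligand, at 311 and 485 CPM. Foxl1, a transcription factor gene of subepithelial cells, was low, at 31.3 and 30.6 CPM.

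The Scg2 Thbs2 cluster had a different make-up, led by Scg2 (secretogranin II), Thbs2 (a matrix thrombospondin) and Fibin, with Kcnn3, a potassium channel gene, among its 10 leading genes. It also held part of the pericyte list, with 5 of 8 markers found in ApcMin and 4 in VApcMinL and Rgs5 at 2784 and 2176 CPM. In this cluster 15.2% of the cells had a high doublet score. With those cells left out, its Pdgfra level was 2052 CPM in ApcMin and 1804 CPM in VApcMinL.

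The remaining clusters formed a narrow range. Penk Plau cells, led by the proenkephalin gene Penk and by Plau, the urokinase gene, had 702 CPM in ApcMin and 669 CPM in VApcMinL, and Wif1 Itgbl1 cells, led by the Wnt inhibitor gene Wif1, had 697 and 703 CPM. The intervals of these 2 clusters overlapped in both libraries and their order differed, so they cannot be ranked. Has1 Inmt cells followed with 549 and 486 CPM, and Cxcl13 Ereg cells with 466 and 568 CPM.

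Grem1 Stc2 cells, which carry the markers of the cells around the crypt base that secrete the BMP antagonist Gremlin 1, had 430 CPM (416 to 445) in ApcMin and 428 CPM (414 to 442) in VApcMinL. Pi16 Cd248 cells, of the adventitial type, had 445 and 461 CPM, and Mmp10 Col6a5 cells 419 and 477 CPM. In ApcMin the intervals of these 3 clusters overlapped each other. In VApcMinL the interval of Mmp10 Col6a5 cells (453 to 501) lay above that of Grem1 Stc2 cells, and Pi16 Cd248 cells (425 to 500) overlapped both.

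**Figure D2:**
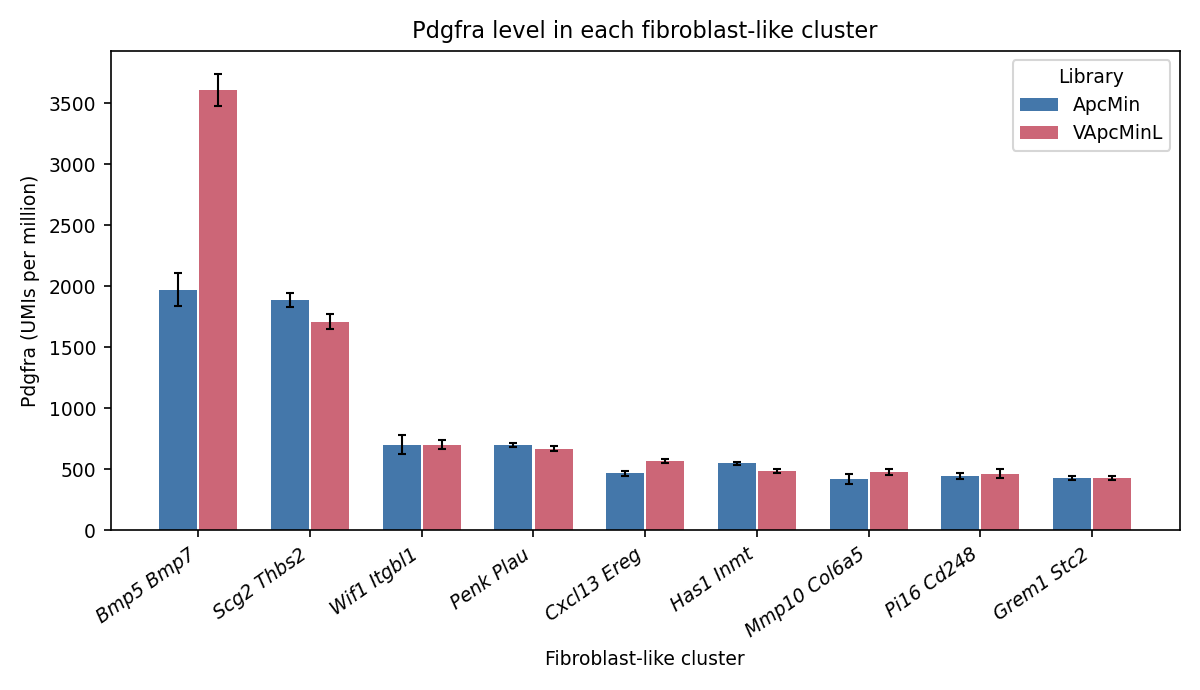
Pdgfra level in each of the 9 fibroblast-like clusters in both libraries, in CPM of the cluster, with exact 95% Poisson intervals that cover counting error only. The Bmp5 Bmp7 bars stand at 1971 CPM (ApcMin) and 3608 CPM (VApcMinL), the Scg2 Thbs2 bars at 1888 and 1708 CPM, and the bars of the other 7 clusters stay between 419 and 703 CPM.

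Counts in single cells showed the same separation. After thinning, the median Bmp5 Bmp7 cell held 4 Pdgfra UMIs in ApcMin and 10 in VApcMinL, and the median Scg2 Thbs2 cell 5 and 5.5. At least 5 UMIs were found in 40.6% of Bmp5 Bmp7 cells in ApcMin and in 90.9% in VApcMinL, and in 57.3% and 59.0% of Scg2 Thbs2 cells. In the other 7 clusters medians were 1 or 2 UMIs, and between 2.17% and 9.68% of cells reached 5. The ApcMin Bmp5 Bmp7 cells were uneven: 6 of 32 had no Pdgfra UMI after thinning and the highest had 14, whereas none of the 77 VApcMinL cells was at 0 and the highest had 31.

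**Figure D3:**
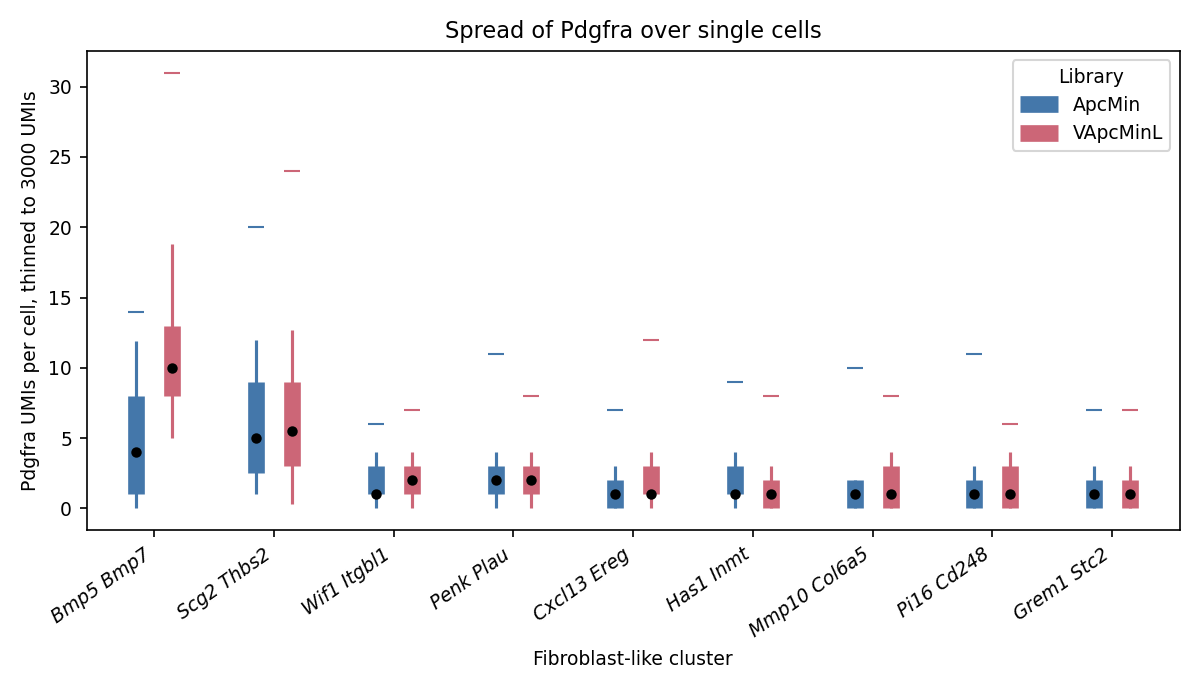
Pdgfra UMIs per cell after thinning every cell to 3000 UMIs, by fibroblast-like cluster and library, with the median as a dot, the 25th to 75th percentile as a box, the 10th to 90th as a line and the highest cell as a dash. Medians are 4 (ApcMin) and 10 (VApcMinL) UMIs in Bmp5 Bmp7 cells, 5 and 5.5 in Scg2 Thbs2 cells and 1 or 2 in all others.

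Between the libraries Pdgfra passed 1.5-fold in 1 fibroblast-like cluster and not in the sum of all. For all fibroblast-like cells the ratio of VApcMinL to ApcMin was 1.01 (0.998 to 1.03), and it was 1.02 (0.998 to 1.03) without cells carrying Barx1 or Six2. In the Bmp5 Bmp7 cluster it was 1.83 (1.69 to 1.98), past the 1.5-fold limit used here to count a gene. Of all genes with at least 200 UMIs in this cluster, 30.1% passed the same limit. The ratio stayed at 1.91 with likely doublets left out, at 1.82 in cells with at least 5000 UMIs and at 2.29 after thinning.

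Regional genes differed in the same cluster. Barx1 was at 282 CPM in ApcMin and 5.11 CPM in VApcMinL (117 and 4 UMIs), Nkx2-3 was at 86.7 and 477 CPM, and 21 of 32 ApcMin cells (65.6%) had a UMI of Barx1 or Six2 against 1 of 77 VApcMinL cells (1.30%). ApcMin cells with such a UMI had Pdgfra at 1575 CPM (1433 to 1728), and the 11 without had 2831 CPM (2550 to 3134). Without these cells the ratio was 1.28 (1.15 to 1.43), under the limit. The summed level of the 8 fibroblast markers in the cluster was 21382 CPM in ApcMin and 10792 CPM in VApcMinL, and its part in the result was not tested.

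No other cluster passed 1.5-fold for Pdgfra, where the share of all genes passing was 8.27% in Cxcl13 Ereg, 7.68% in Has1 Inmt, 5.84% in Penk Plau, 5.5% in Pi16 Cd248 and 23.6% in Wif1 Itgbl1 cells. Cxcl13 Ereg cells were the next highest, at 1.22 (1.16 to 1.28), and this ratio was 1.21 without cells carrying Barx1 or Six2. Has1 Inmt cells had the lowest ratio, 0.885 (0.854 to 0.917). Pi16 Cd248 cells had a ratio of 1.04 with all cells and 0.897 (0.811 to 0.991) without those carrying Barx1 or Six2, since these cells had 300 CPM in ApcMin and the others 520 CPM.

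Outside the fibroblast-like clusters, Pdgfra in endothelial-, myeloid- and glia-like cells was much lower once cells carrying fibroblast RNA were left out. Blood endothelial-like cells had 137 CPM in ApcMin and 50.9 CPM in VApcMinL, and 10 cells held 89.5% and 53.5% of those UMIs. In cells with at most 3 of the 8 fibroblast markers the level was 2.68 CPM (2 UMIs) and 10.9 CPM (31 UMIs), so the direction between the libraries turned. Myeloid-like cells had 21.7 and 62.3 CPM, a ratio of 2.88 (2.20 to 3.78). Without likely doublets they had 5.39 and 18.0 CPM, a ratio of 3.35 (1.85 to 6.26), and after thinning the ratio was 2.41 (1.34 to 4.47). In myeloid-like cells with at most 3 fibroblast markers the levels were 3.71 and 3.33 CPM. The same restriction took lymphatic endothelial-like cells from 75.3 and 37.7 CPM to 0 and 3.63 CPM, and glia-like cells from 87.1 and 56.0 CPM to 0 and 1.84 CPM. Of all genes with at least 200 UMIs, 10.3% passed 1.5-fold in blood endothelial-like and 9.27% in myeloid-like cells. The summed level of the fibroblast markers was 7146 and 2229 CPM in blood endothelial-like cells and 2607 and 3458 CPM in myeloid-like cells, and moved in the same direction as Pdgfra in both. Their part in the result was not tested.

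Pdgfrb (ENSMUSG00000024620; GRCm38, chr18:61045150-61085061, plus strand) encodes receptor β. Pericyte-like cells, the contractile cells that wrap capillaries, had 1565 CPM (1357 to 1797; 26 cells) in ApcMin and 1011 CPM (863 to 1177; 29 cells) in VApcMinL. All of them held a UMI, and 100% and 93.1% did after thinning. They held 8 of 8 pericyte markers in both libraries, with Rgs5, a regulator of G protein signalling, at 8818 and 9248 CPM. Pericyte-like cells are few and shallow, with medians of 4089 and 4120 UMIs. They were told apart from smooth muscle-like cells of the same cluster by which marker list had more genes with a UMI. The same pericyte list thus picked the cells, and its markers do not test their identity.

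In fibroblast-like cells Pdgfrb was present in all 9 clusters at a lower level, 84.8 CPM (82.2 to 87.5) in ApcMin and 92.6 CPM (89.7 to 95.6) in VApcMinL. Because fibroblast-like cells are so many, they still held 92.1% and 88.4% of all Pdgfrb UMIs, against 4.72% and 3.82% in pericyte-like cells. Erythroid-like cells were at 0.399 and 0.694 CPM and droplets without a cell at 24.3 and 30.05 CPM. After thinning, 22.03% and 23.9% of fibroblast-like cells had a Pdgfrb UMI.

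The order of the clusters for Pdgfrb was not that for Pdgfra. Mmp10 Col6a5 cells were highest in ApcMin, at 235 CPM (208 to 264), and stood at 156 CPM (143 to 170) in VApcMinL, where Bmp5 Bmp7 cells had 191 CPM (162 to 225). Penk Plau cells followed at 123 and 137 CPM. Scg2 Thbs2 cells, with the second highest Pdgfra level, were lowest for Pdgfrb in ApcMin, at 44.3 CPM (36.3 to 53.5), and had 70.6 CPM in VApcMinL. Pi16 Cd248 cells, at 47.8 CPM (40.8 to 55.8) and 59.0 CPM, overlapped them, and Grem1 Stc2 cells had 61.5 and 61.3 CPM.

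Pdgfrb in blood endothelial-like cells was at 24.0 CPM in ApcMin and 47.6 CPM in VApcMinL. The 4 and 33 cells with at least 3 pericyte markers had 214 and 260 CPM (12 and 130 UMIs). The others had 13.2 and 10.2 CPM (13 and 29 UMIs), below the droplets without a cell. The summed pericyte list was at 195 and 906 CPM in these endothelial-like cells, higher in VApcMinL as Pdgfrb was. Smooth muscle-like cells had 92.1 and 93.6 CPM from 14 and 41 cells.

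Between the libraries Pdgfrb in all fibroblast-like cells had a ratio of 1.09 (1.04 to 1.14). Pericyte-like cells had a lower level in VApcMinL, with a ratio of 0.646 (0.523 to 0.797), but 40.3% of the 181 genes with at least 200 UMIs there passed 1.5-fold and their median log2 ratio was 0.21. After thinning the ratio was 0.738 (0.566 to 0.960), inside the limit. It stayed past the limit without likely doublets, at 0.663 (0.535 to 0.821). In the 10 ApcMin and 9 VApcMinL cells with at least 5000 UMIs it was 0.524 (0.368 to 0.742). The summed level of the smooth muscle markers in these cells was 1387 CPM in ApcMin and 2528 CPM in VApcMinL and their median mitochondrial share 2.54% and 4.42%, and the part of both in the result was not tested. In the 11 ApcMin and 12 VApcMinL pericyte-like cells with at most 3 fibroblast markers the levels were 1496 and 1504 CPM. Mmp10 Col6a5, Scg2 Thbs2 and Bmp5 Bmp7 cells differed past 1.5-fold. Mmp10 Col6a5 cells had a ratio of 0.666 (0.574 to 0.773), where 7.45% of all genes passed. Scg2 Thbs2 cells had 1.59 (1.22 to 2.09), where 7.37% passed. Bmp5 Bmp7 cells had 1.56 (1.13 to 2.19), where 30.1% passed. This ratio was 1.48 without likely doublets and had an interval reaching below 1 after thinning (0.929 to 4.16).

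Both receptors were found in the same fibroblast-like cells about as often as their separate shares give. After thinning, 17.4% of ApcMin cells (583) and 18.8% of VApcMinL cells (691) held UMIs of both, and the product of the separate shares was 16.9% and 18.3%. Bmp5 Bmp7 cells held both in 21.9% and 42.9%, and Mmp10 Col6a5 cells in 35.6% and 22.2%. Among pericyte-like cells 1 of 26 and 2 of 29 held both, 3.85% and 6.90%, where the product of the separate shares was 3.85% and 6.42%. Pdgfra had 1 UMI in all 26 ApcMin cells and 16 UMIs in the 29 VApcMinL cells. None of those 16 lay in the 12 VApcMinL cells with at most 3 fibroblast markers.

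Pdgfa (ENSMUSG00000025856; GRCm38, chr5:138976014-138997370, minus strand) encodes the A chain, a ligand of receptor α. It was highest in glia-like cells, with 816 CPM (691 to 958; 27 cells) in ApcMin and 883 CPM (828 to 940; 172 cells) in VApcMinL. After thinning 81.5% and 77.3% of these cells held a UMI, with a median of 2 UMIs in both libraries. The cells carried Sox10, a neural crest factor gene, at 245 and 245 CPM, whereas the neuronal marker Elavl4 had no UMI. Droplets without a cell had 13.3 and 38.4 CPM, and erythroid-like cells 0 and 1.73 CPM.

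Other Pdgfa populations lay well below. Pericyte-like cells had 232 CPM in ApcMin and 225 CPM in VApcMinL, from 30 and 37 UMIs. Epithelial-like cells that had escaped the sort, at median depths of 44634 and 41878.5 UMIs, had 86.3 CPM (75.9 to 97.6) and 103 CPM (97.6 to 108), and 20.4% and 27.7% of them held a UMI after thinning. Smooth muscle-like cells had 176 and 93.6 CPM and mesothelial-like cells 159 and 83.4 CPM, each from fewer than 50 UMIs. Myeloid-like cells had 66.9 and 43.5 CPM.

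Fibroblast-like cells had little Pdgfa, 18.6 CPM (17.3 to 19.8) in ApcMin and 15.7 CPM (14.5 to 17.0) in VApcMinL. The latter is below the droplets without a cell in that library. Grem1 Stc2 cells had 27.1 and 18.9 CPM and Cxcl13 Ereg cells 26.8 and 14.1 CPM, while Penk Plau cells had 6.21 and 5.46 CPM and Pi16 Cd248 cells 5.91 and 3.11 CPM. The populations also differed in number, and fibroblast-like cells held 50.4% of all Pdgfa UMIs in ApcMin and 18.1% in VApcMinL. Epithelial-like cells held 14.7% and 42.7% and glia-like cells 8.77% and 27.2%. The libraries held 49 and 346 epithelial-like and 27 and 172 glia-like cells.

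The level of Pdgfa in its main populations was close between the libraries. Glia-like cells had a ratio of 1.08 (0.910 to 1.29), epithelial-like cells 1.19 (1.04 to 1.37) and fibroblast-like cells 0.847 (0.764 to 0.939). Cxcl13 Ereg cells had 0.527 (0.405 to 0.684), past the 1.5-fold limit, and 0.742 (0.432 to 1.30) after thinning. Myeloid-like cells had 0.650 (0.514 to 0.817), and 0.619 (0.326 to 1.13) after thinning. The share of all genes passing 1.5-fold was 8.27% in Cxcl13 Ereg and 9.27% in myeloid-like cells. It was 11.7% in glia-like and 34.7% in epithelial-like cells, where Pdgfa did not pass.

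Pdgfb (ENSMUSG00000000489; GRCm38, chr15:79995874-80014977, minus strand) encodes the B chain, the ligand of both receptors. Its level was highest in blood endothelial-like cells, with 210 CPM (184 to 240; 124 cells) in ApcMin and 203 CPM (188 to 219; 488 cells) in VApcMinL. Blood endothelial-like cells held a UMI in 42.7% and 40.2% of cases after thinning. The level was 221 and 219 CPM in cells with fewer than 3 pericyte markers. All 8 blood endothelial markers were found in at least 25% of these cells in both libraries, with Flt1, a VEGF receptor gene, at 2388 and 2984 CPM.

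Glia-like cells also carried Pdgfb, at 207 CPM (146 to 284) in ApcMin and 161 CPM (138 to 186) in VApcMinL. In ApcMin their interval overlapped that of blood endothelial-like cells, and in VApcMinL it lay just below. Myeloid-like cells had 74.2 and 38.5 CPM and lymphatic endothelial-like cells 21.5 and 47.2 CPM. Fibroblast-like cells had 0.258 CPM (12 UMIs) and 0.603 CPM (25 UMIs), below the droplets without a cell at 19.9 and 10.5 CPM. Pericyte-like cells had 2 UMIs in ApcMin and 0 of 29 cells with a UMI in VApcMinL.

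The endothelial level of Pdgfb did not differ past counting error between the libraries, with a ratio of 0.964 (0.827 to 1.13). Myeloid-like cells had a ratio of 0.518 (0.406 to 0.657), where 9.27% of all genes passed 1.5-fold, and 0.706 (0.454 to 1.08) after thinning. The myeloid-like cluster was led by Mcpt1 and Mcpt2, mast cell protease genes, together with macrophage genes. With the 22 ApcMin and 2 VApcMinL cells that had more mast cell than myeloid markers set apart, Pdgfb was at 81.3 and 38.6 CPM. Of all Pdgfb UMIs, blood endothelial-like cells held 35.9% in ApcMin and 63.3% in VApcMinL, and myeloid-like cells 50% and 8.59%. Pdgfb and Pdgfrb were seen together after thinning in 0 of 124 and 5 of 488 blood endothelial-like cells.

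**Figure D4:**
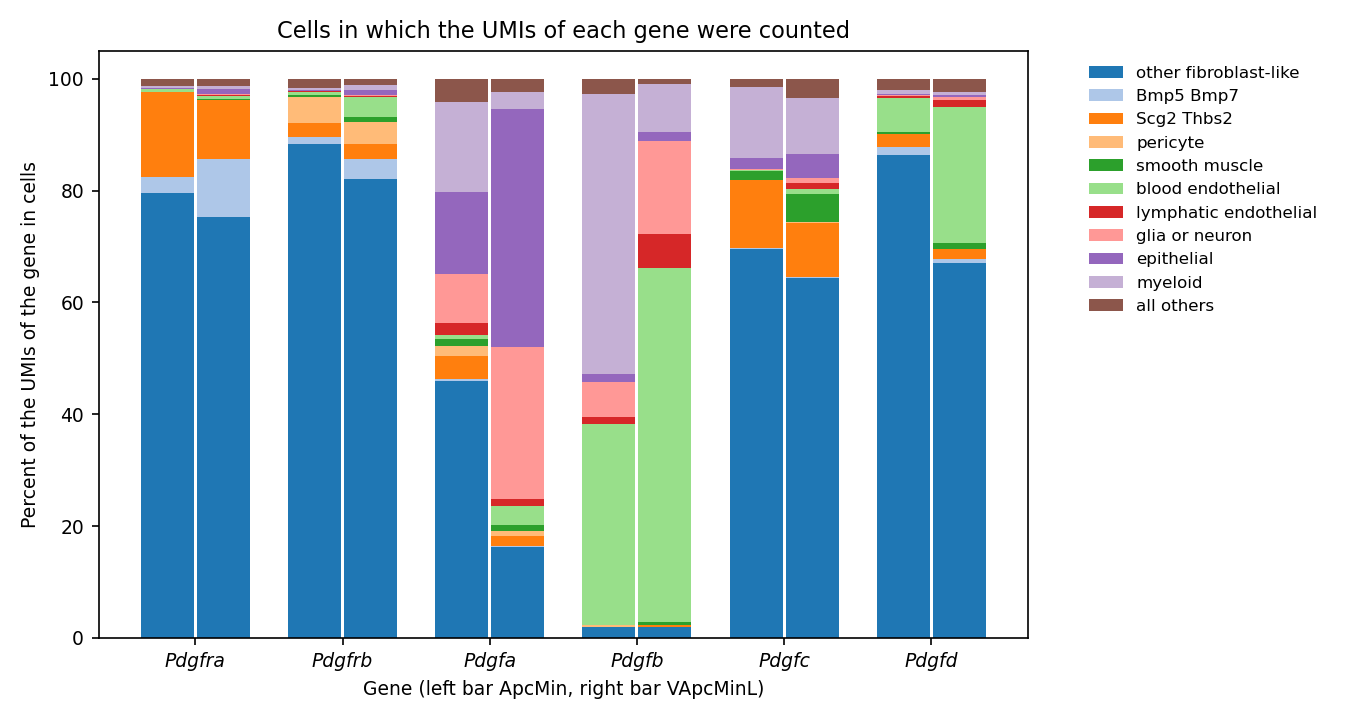
Percent of each gene's UMIs that lie in each group of named populations, as stacked bars for each gene and library that add to 100. Fibroblast-like cells take nearly all Pdgfra (97.6% in ApcMin and 96.2% in VApcMinL among all cells), whereas Pdgfb is divided mainly among blood endothelial-, glia- and myeloid-like cells.

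Pdgfc (ENSMUSG00000028019; GRCm38, chr3:81036416-81214040, plus strand) encodes the C chain, a ligand of receptor α that is secreted in latent form. Its counts were low throughout. Smooth muscle-like cells had 92.1 CPM (45.9 to 165; 11 UMIs) in ApcMin and 57.6 CPM (36.9 to 85.7; 24 UMIs) in VApcMinL. All fibroblast-like cells had 11.7 and 8.74 CPM, against 8.30 and 4.46 CPM in droplets without a cell, and 2.72% and 2.23% of them held a UMI after thinning.

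Pdgfc was unevenly spread over the fibroblast-like clusters. Scg2 Thbs2 cells had 33.5 CPM (26.6 to 41.7) in ApcMin and 27.6 CPM (20.3 to 36.7) in VApcMinL, and Grem1 Stc2 cells 21.3 and 14.0 CPM. Penk Plau cells, with intermediate Pdgfra, had 0.659 and 1.03 CPM, and Mmp10 Col6a5 cells 0 and 1.85 CPM. Bmp5 Bmp7 cells, with the highest Pdgfra, had 2.41 and 1.28 CPM, from 1 UMI in each library. Scg2 Thbs2 cells therefore lay at the high end of the clusters for this ligand and for its receptor Pdgfra. For Pdgfc they were not alone there. Pi16 Cd248 cells had 26.9 CPM (21.6 to 33.0) in ApcMin and 13.2 CPM in VApcMinL. Wif1 Itgbl1 cells had 10.9 CPM in ApcMin and 26.6 CPM (19.7 to 35.1) in VApcMinL. The intervals printed for these clusters overlapped that of Scg2 Thbs2 cells in the same library.

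Pdgfc was lower in VApcMinL for all fibroblast-like cells, with a ratio of 0.745 (0.650 to 0.852), inside the 1.5-fold limit. Grem1 Stc2 cells had 0.658 (0.516 to 0.837), where 5.07% of all genes passed, and 0.694 (0.422 to 1.14) after thinning. Myeloid-like cells had 20.7 and 20.5 CPM.

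Pdgfd (ENSMUSG00000032006; GRCm38, chr9:6168584-6378850, plus strand) encodes the D chain, a ligand of receptor β that is also secreted in latent form. Blood endothelial-like cells were highest, at 52.9 CPM (39.8 to 68.8) in ApcMin and 67.9 CPM (59.4 to 77.4) in VApcMinL, with a UMI in 21.8% and 19.1% of cells after thinning. Fibroblast-like cells had 17.8 and 15.7 CPM, against 8.30 and 6.01 CPM in droplets without a cell. Pi16 Cd248 cells had 28.1 and 21.7 CPM, Grem1 Stc2 cells 23.2 and 23.0 CPM and Has1 Inmt cells 18.4 and 17.6 CPM. The same 3 clusters had Pdgfrb levels between 47.8 and 70.5 CPM, under the average of all fibroblast-like cells. This did not hold for all clusters with Pdgfd. In ApcMin, Bmp5 Bmp7 cells had 31.3 CPM of Pdgfd (13 UMIs) and Wif1 Itgbl1 cells 19.7 CPM (9 UMIs). Their Pdgfrb levels there were 123 and 122 CPM, above that average. In VApcMinL these clusters had 8.94 and 10.1 CPM of Pdgfd.

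Pdgfd had no population with at least 200 UMIs that passed 1.5-fold. The ratio was 1.29 (0.954 to 1.76) in blood endothelial-like cells, 0.885 (0.798 to 0.982) in all fibroblast-like cells and 0.989 (0.804 to 1.22) in Grem1 Stc2 cells. Fibroblast-like cells held 90.2% of all Pdgfd UMIs in ApcMin and 69.5% in VApcMinL, and blood endothelial-like cells 6.00% and 24.2%.

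Counted over the family, 5 of the 6 genes had at least 200 UMIs in all fibroblast-like cells, and none of the 5 passed 1.5-fold between the libraries, where 9.93% of 11746 genes did. Pdgfb, with 37 UMIs in both libraries together, had a log2 ratio of 1.22 (0.18 to 2.35). Among the 26 pairs of a gene and a fibroblast-like cluster with enough UMIs, 3 were higher and 3 lower in VApcMinL, where the share of all genes passing ran from 5.07% to 30.1% by cluster. Among 11 such pairs in 5 other populations, 1 was higher and 4 were lower, where that share ran from 9.27% to 40.3%.

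**Figure D5:**
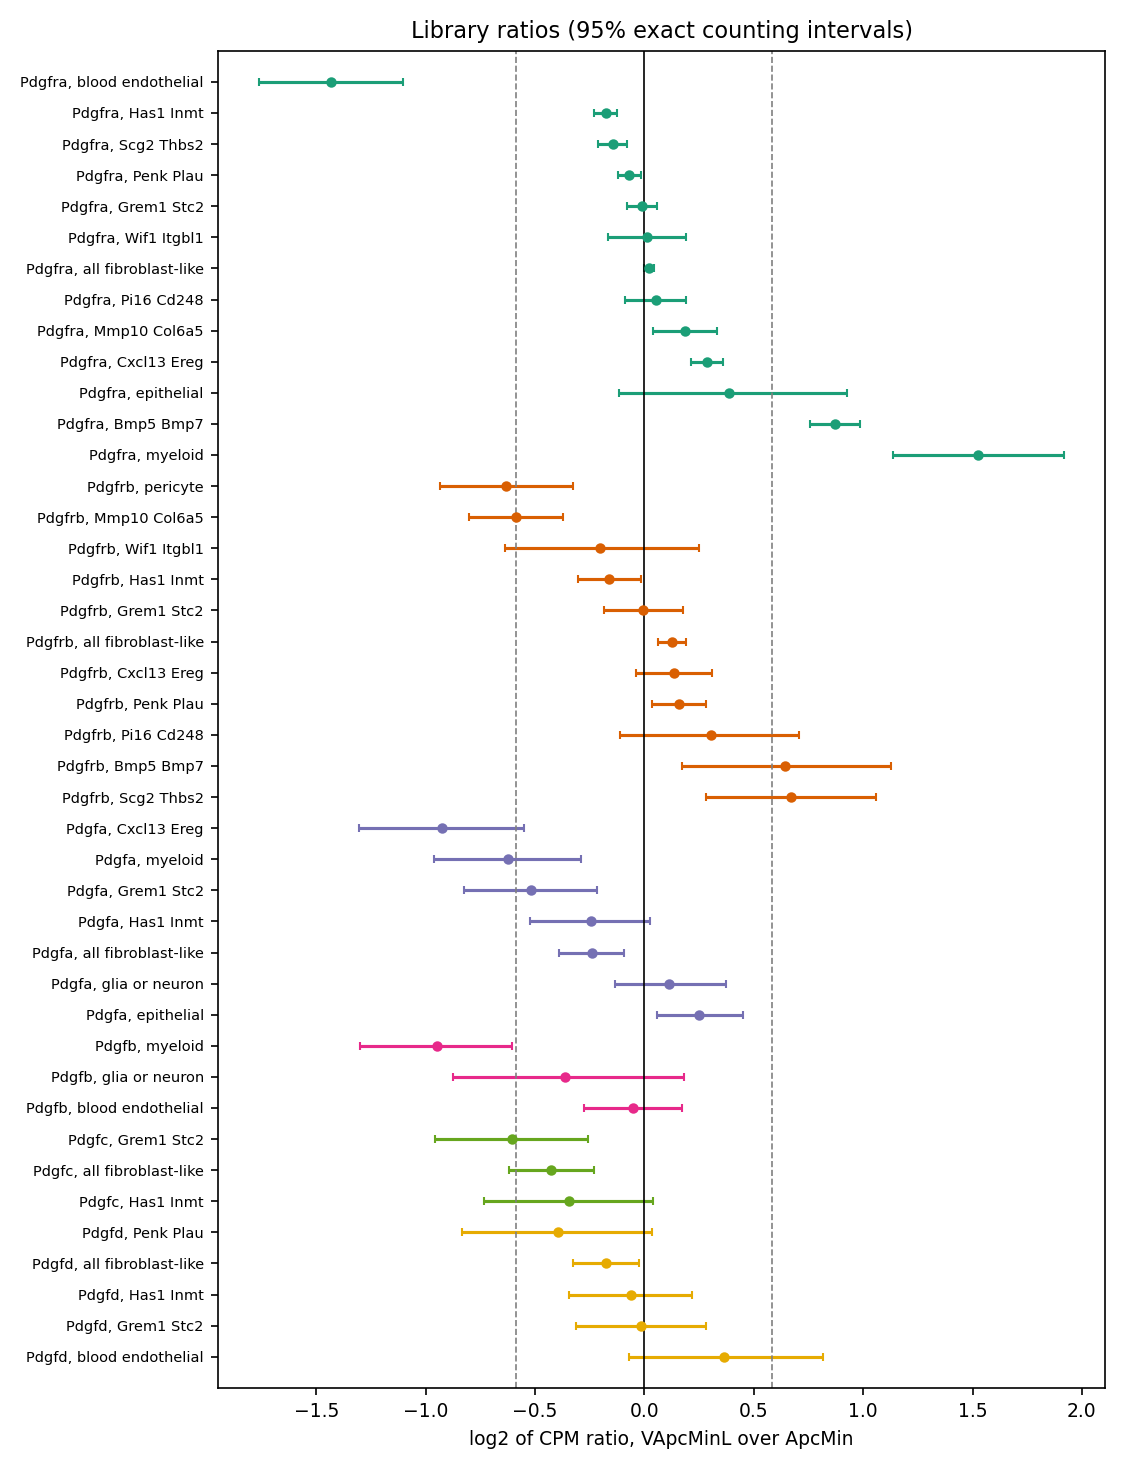
log2 ratio of VApcMinL to ApcMin for each pair of a PDGF gene and a population with at least 200 UMIs, with exact 95% intervals that cover counting error only and dashed lines at 1.5-fold. Pdgfra in all fibroblast-like cells sits at 0.02, Pdgfra in Bmp5 Bmp7 cells at 0.87 and Pdgfrb in pericyte-like cells at -0.63.

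The other PDGF pathway genes listed were 25: proteases that release the active ligands, co-receptors and binding proteins, and signalling proteins that dock on the receptors. In all fibroblast-like cells 23 had at least 200 UMIs, of which 0 were higher and 2 lower past 1.5-fold in VApcMinL, with a median log2 ratio of -0.0025 where that of all genes was 0.0011. With 9.93% of all genes passing, 2 of 23 is near the background. Pcsk6, a proprotein convertase, was at 203 CPM in ApcMin and 95.7 CPM in VApcMinL, and Plat, the tissue plasminogen activator that cleaves latent PDGF-CC, was at 226 and 127 CPM. Without cells carrying Barx1 or Six2 they were at 180 and 94.9 CPM and at 213 and 126 CPM.

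Of the co-receptors, Nrp1 (neuropilin 1) was at 210 CPM in ApcMin and 272 CPM in VApcMinL, and Lrp1, a receptor that associates with receptor β, at 706 and 798 CPM. Sparc, a matrix protein that binds PDGF-B, was at 4144 and 3406 CPM. In the Bmp5 Bmp7 cluster 4 pathway genes had enough UMIs, with Lrp1 higher in VApcMinL (262 and 619 CPM) and Sparc lower (3144 and 1700 CPM), where 30.1% of all genes passed. In Penk Plau cells Nrp1 alone of 22 genes passed, at 276 and 441 CPM, where 5.84% of all genes did. In blood endothelial-like cells 14 had enough UMIs, with Furin, the convertase that processes the A and B chains, at 80.7 and 122 CPM and Sparc at 2350 and 1498 CPM, both past 1.5-fold, as were 10.3% of all genes.

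Genes with a pattern like that of each member were ranked by the Pearson correlation of log2(CPM + 1) over 44 points, 22 populations in 2 libraries, among 13629 genes. The points share libraries and depth, and each population enters once per library, so the values are descriptive. Pdgfra was closest to Dpt (0.935), Mmp2 (0.902) and Kcnk2 (0.900), of which Dpt and Mmp2 encode a matrix protein and a matrix protease of fibroblasts. Pdgfrb was closest to Cacng7 (0.938), Snai1 (0.907) and Adamts4 (0.907). Pdgfa was closest to Sort1 (0.814), Epha2 (0.795) and B4galt6 (0.794).

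The other ligands had looser neighbours, apart from Pdgfd. Pdgfb was closest to Afap1l1 (0.783), Sema7a (0.751) and Rai14 (0.747), and Pdgfc to Pnck (0.732), Ndrg4 (0.707) and Kcnma1 (0.705). Pdgfd was closest to Jcad (0.882), a gene of endothelial junctions, Tcf7l1 (0.881) and Ehd2 (0.867). Between members, the closest pair was Pdgfra with Pdgfrb (0.653), and Pdgfra with Pdgfb was at -0.22.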

How the data were processed

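The authors deposited raw UMI counts per gene and barcode, not normalized, for all 6794880 barcodes of each library (93203061 and 101609269 UMIs). Reads were quantified by the authors with Cell Ranger on the mm10 (GRCm38) reference. The submitters' processing notes give version 2.1.1 and the headers of the deposited count files 3.1.0. No cell calling had been applied. Barcodes with at least 3000 UMIs and at most 20% mitochondrial UMIs were kept, which held 83.6% and 74.4% of all UMIs, while 75 and 531 barcodes exceeded the mitochondrial limit. The study's filter on the top and bottom 1% of detected genes was run as an alternative.

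Counts were divided by the cell total, multiplied by 10000 and log-transformed, and libraries were integrated with canonical correlation anchors in Seurat 5.3.0 (R 4.3.3). Clusters came from the Louvain algorithm on 20 principal components with 20 neighbours. The resolution was 0.8 in place of 0.2, at which pericyte and endothelial genes shared a cluster in earlier results. In the clustering made here, blood endothelial-like cells (124 and 487) and smooth muscle-like cells (35 and 47) formed separate clusters at 0.2 also. The 6 PDGF genes were left out of the variable genes, anchors, components and markers. A cluster took the name of a marker list with at least 3 genes detected in 25% of its cells. Fibroblast-like clusters needed 6 of 8 fibroblast markers and were called by leading genes, so their names are rebuilt here and may differ from the study's. Doublets were kept. Scrublet (scanpy 1.11.5) at its own threshold called 0 and 1 cells, so the alternative left out the highest scores (348 and 345 cells).

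CPM had exact Poisson intervals, shares Clopper-Pearson intervals and ratios conditional binomial intervals, all at 95%. A gene was counted between libraries when it had at least 200 UMIs in a population and differed at least 1.5-fold. The profile without cells came from barcodes ranked 45000 to 90000 by UMIs. Named genes were the 6 members, 25 pathway genes and, per member, the 3 genes of most similar pattern, leaving out mitochondrial and sex-linked marker genes. The members, gene lists and rules were chosen with earlier results of these data known. Scripts used Python 3.11.15 and were tested on simulated data. Gene positions are from GENCODE on GRCm38.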

Additional observations from a re-analysis of the deposited data

Results flagged for a closer look

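Both receptors were past 1.5-fold in opposite directions in different populations, among populations with at least 200 UMIs of the gene. With 1 library per genotype none of these differences between populations was tested. As log2 ratios of VApcMinL to ApcMin, Pdgfra was at 0.87 in Bmp5 Bmp7 cells, -1.43 in blood endothelial-like cells and 1.52 in myeloid-like cells, against 0.02 in all fibroblast-like cells. Pdgfrb was at 0.64 in Bmp5 Bmp7 cells, 0.67 in Scg2 Thbs2 cells, -0.59 in Mmp10 Col6a5 cells and -0.63 in pericyte-like cells, against 0.13 in all fibroblast-like cells. The share of all genes passing 1.5-fold was 40.3% in pericyte-like, 30.1% in Bmp5 Bmp7 and 10.3% in blood endothelial-like cells. It was 9.27% in myeloid-like, 7.45% in Mmp10 Col6a5 and 7.37% in Scg2 Thbs2 cells. In Bmp5 Bmp7 cells the share with a Barx1 or Six2 UMI (65.6% in ApcMin and 1.30% in VApcMinL) went in the opposite direction to Pdgfra. In the blood endothelial- and myeloid-like cells the fibroblast markers went in the same direction as Pdgfra. Without the cells carrying Barx1 or Six2, Pdgfra in Bmp5 Bmp7 cells had a ratio of 1.28, inside the limit, with 11 ApcMin cells left. Pdgfrb without such cells stayed past the limit. Its ratio was 1.65 (0.968 to 3.02) in Bmp5 Bmp7, 1.68 (1.28 to 2.22) in Scg2 Thbs2 and 0.660 (0.569 to 0.767) in Mmp10 Col6a5 cells. In blood endothelial-like cells with at most 3 fibroblast markers, Pdgfra was at 2.68 CPM in ApcMin and 10.9 CPM in VApcMinL, where the direction turned. In such myeloid-like cells it was at 3.71 and 3.33 CPM. Without likely doublets, the Pdgfra ratio in myeloid-like cells stayed past the limit, at 3.35 (1.85 to 6.26).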

How the results depend on the processing

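Alternative values numbered 169, for the library ratios in fibroblast-like cells, the highest levels (both libraries together) and the range of Pdgfra among clusters. Of these, 140 moved by less than the counting interval and 29 moved by more. A reversal could be counted only for a ratio past 1.5-fold whose interval excluded 1. Only Pdgfb met this, with 12 alternative values, and 0 of them reversed. For all other values the count of reversals says nothing. No paired analysis was possible because 1 library stands for each genotype. With cells of at least 5000 UMIs, Pdgfrb in pericyte-like cells was 926 CPM against 1255. Without likely doublets, Pdgfra in Bmp5 Bmp7 cells was 3220 CPM against 3041, Pdgfa in glia-like cells 972 against 873, Pdgfb in blood endothelial-like cells 224 against 205 and the VApcMinL highest-to-lowest ratio of Pdgfra 9.09 against 8.44. After thinning, log2 ratios were 0.0895 for Pdgfra, 0.20 for Pdgfrb and 2.45 for Pdgfb (0.02, 0.13 and 1.22 otherwise), and levels 1436 CPM for Pdgfrb, 227 for Pdgfb and 76.8 for Pdgfd. Subtracting 5% of the empty-droplet profile gave 3194 CPM for Pdgfra in Bmp5 Bmp7 cells and no ratio for Pdgfb, which had no counts left in a library. Without the 10 cells with the most UMIs of a gene in each library, the Pdgfb log2 ratio was 3.75, the highest levels were 2545 (Pdgfra), 810 (Pdgfrb), 742 (Pdgfa), 176 (Pdgfb), 18.7 (Pdgfc, 65.3 otherwise) and 53.5 CPM (Pdgfd, 64.4 otherwise), and the VApcMinL Pdgfra range was 7.62. At resolution 0.2 the highest Pdgfra cluster had 1814 CPM and the VApcMinL range was 6.32, and with cells from 1000 UMIs clustered again the ranges were 5.37 in ApcMin (4.70 otherwise) and 11.7 in VApcMinL. Of the alternatives added after the data were seen, keeping pericyte- and smooth muscle-like cells together gave 504 CPM of Pdgfrb and 43.4 of Pdgfc, leaving out endothelial-like cells with 3 or more pericyte markers gave 219 CPM of Pdgfb, and leaving out cells with a Barx1 or Six2 UMI gave a Pdgfa log2 ratio of -0.41 against -0.24 and, with Bmp5 Bmp7 then under the 20 cells required per library, a highest Pdgfra level of 1842 CPM in Scg2 Thbs2 cells. At a limit of 50 UMIs, 2236 of 14172 genes passed 1.5-fold in fibroblast-like cells, against 1166 of 11746. The cause of these shifts was not tested. Depth limits Pdgfb in fibroblast-like cells, with 37 UMIs in all, and no alternative adds a replicate.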
